A study of Homo sapiens with 4 samples.

Results

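The NRF2 antioxidant response and the glutathione and thioredoxin systems were examined through 9 genes in colorectal cancer cells depleted of SHMT2. The genes were taken by symbol from a table of 26364 gene rows: NFE2L2, GCLC, GCLM, SLC7A11, NQO1, HMOX1, TXNRD1, SRXN1 and GPX2. All 9 were found, and all 9 had at least 10 counts in at least 2 libraries and were tested with 14024 genes in total. The RNA came from SW480 and SW620 cells, human colorectal cancer lines derived from the primary tumour and a lymph node metastasis of the same patient. The labels describe Illumina RNA sequencing libraries, and the values are whole-number counts. The study's methods describe a microarray for the expression profiling, while its results and data statement call it RNA-seq. There were 4 libraries, with 1 library of SHMT2-knockdown cells and 1 of control cells for each line. SHMT2 is the mitochondrial enzyme that splits serine into glycine and a one-carbon unit, and the knockdown used a doxycycline-inducible shRNA carried by a lentivirus. The labels say only that the other cells were controls, which the study's results call control shRNA cells without describing that shRNA. The sources used here do not state whether the sequenced control cells received doxycycline, so the drug and the knockdown cannot be told apart. In bulk RNA, fewer cells expressing a gene and less of its RNA per cell cannot be told apart either.

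NRF2, the protein of NFE2L2, is a transcription factor that KEAP1 normally marks for degradation. When oxidants or electrophiles modify KEAP1, NRF2 accumulates, pairs with small MAF proteins and binds antioxidant response elements near its target genes. The targets make glutathione, reduce thioredoxin and peroxiredoxins, detoxify quinones and break down heme. SHMT2 touches the same chemistry, since glycine is a building block of glutathione and mitochondrial one-carbon metabolism yields NADPH, the reductant that glutathione reductase and thioredoxin reductase consume. Colorectal cancer cells also express GPX2, the glutathione peroxidase of the gut epithelium.

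TXNRD1, which encodes cytosolic thioredoxin reductase, fell in both lines on SHMT2 knockdown and was the only one of the 9 genes past the threshold. In 4 of the 9 genes the values moved in opposite directions in the lines, so that a small average can hold unlike values. The same held for 45.6% of all genes tested, so this count does not set the 9 genes apart. The cystine transporter gene SLC7A11 and the quinone reductase gene NQO1 had higher values in both knockdown libraries but did not pass after adjustment. The largest fitted differences of the 9 genes were between the cell lines. GPX2 was abundant in SW620 cells and almost absent from SW480 cells. HMOX1 was higher in SW480, with 218 and 122 counts in control and knockdown cells, against 5 and 32 in SW620. Between the lines 7 of the 9 genes were called, against 63.6% of all genes tested. NQO1 and SRXN1 were called in neither comparison.

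The libraries held 5530129 to 13774288 counts. Relative to its control, the depth of the knockdown library was 0.671 in SW480 and 2.49 in SW620. Levels are given as CPM, a gene's counts relative to the TMM-scaled library size. SHMT2 itself was at 277 CPM in control and 30.9 CPM in knockdown SW480 cells, and at 688 and 47.6 CPM in SW620 cells. The epithelial genes EPCAM, KRT8, KRT18 and KRT19 had 1831 counts or more in every library. Of the other colon epithelium markers examined, CDX2 had 54 to 180 counts per library, CDX1 had 0 counts in all libraries, and KRT20 and CEACAM5 reached at most 15 and 22 counts. VIL1 had 2 and 1 counts in control and knockdown SW480 cells and 2029 and 5105 in SW620 cells. Among markers of immune, fibroblast and endothelial cells, PTPRC, CD3E, COL1A2, DCN and PECAM1 had at most 2 counts in any library, while COL1A1, CD68 and VWF reached 203, 104 and 15 counts. On knockdown 3 of the 7 tested epithelial markers were called, against 1.66% of all genes tested. KRT8 and KRT18 were lower (log2 fold changes -0.34 and -0.34, adjusted p = 0.00406 and 0.00537) and CDH1 was higher (0.45, adjusted p = 0.021). CD68 was at 10.8 and 5.13 CPM in control and knockdown SW480 cells and at 4.95 and 4.53 CPM in SW620 cells (adjusted p = 0.488). The part of these markers in the results was not tested. With 1 library per line and condition there was no replicate within a line, and intervals given for a single line are exact 95% intervals that cover counting error only.

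Knockdown was compared with control by edgeR's quasi-likelihood test, in a model that also held the cell line, with Benjamini-Hochberg adjustment over all genes. TXNRD1 was lower, and none of the other 8 of the 9 genes passed an adjusted p of 0.05, so that 1 was called as lower and 0 as higher. Over all genes tested, 1.66% were called, 1.17% as lower and 0.492% as higher. At an unadjusted p under 0.05, 3 of the 9 genes passed, against 9.06% of all genes. With DESeq2's Wald test, 0 of the 9 genes passed after adjustment and 2 at the unadjusted limit, where 7 of the 9 had an adjusted p at all. The median of their log2 fold changes was 0.04, and that of all genes tested was 0.01. In the comparison of SW620 with SW480 cells, 5 of the 9 genes were lower and 2 were higher in SW620. That comparison called 63.6% of all genes, 31.3% as lower and 32.3% as higher, so a call there says little about these genes as a group. The size of each difference is therefore given beside it.

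**Figure D1:**
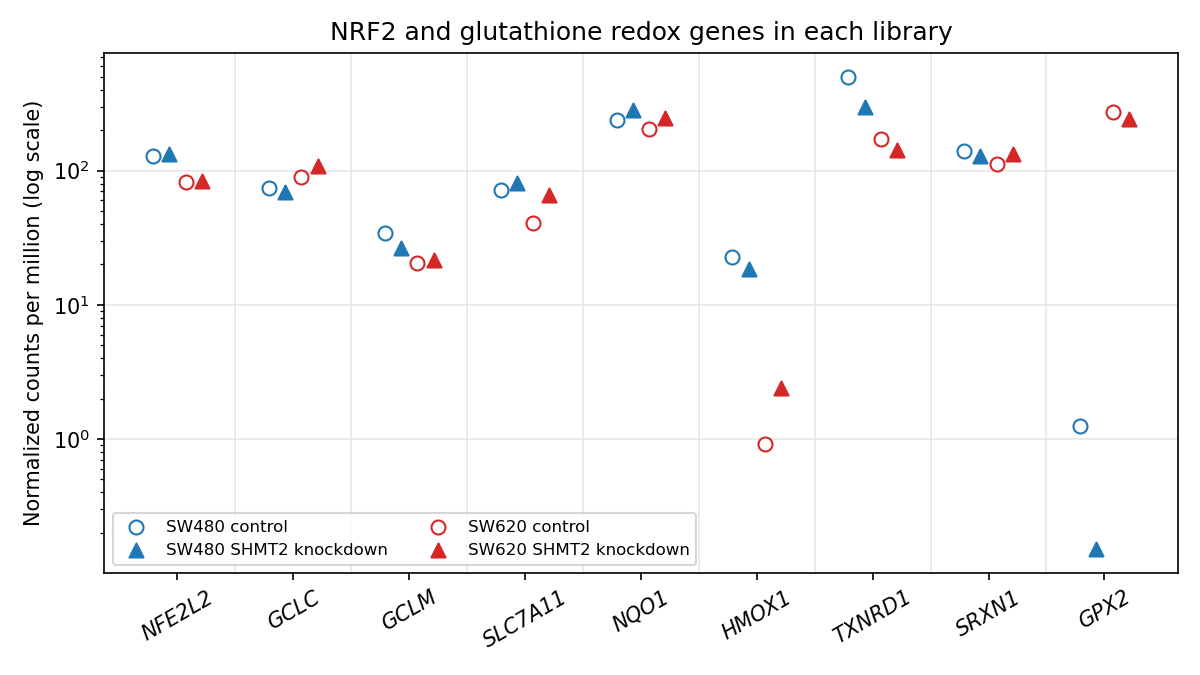
CPM (log scale) of the 9 genes in each of the 4 libraries, with SW480 in blue, SW620 in red, open circles for control and filled triangles for SHMT2 knockdown. GPX2 sits at 275 and 241 CPM in SW620 but at 1.25 and 0.151 CPM in SW480, HMOX1 is ordered the other way, and TXNRD1 is lower in the knockdown than in the control of both lines.

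NFE2L2, the gene of NRF2 itself, was examined first. It was at 128 CPM in control and 133 CPM in knockdown SW480 cells, and at 82.5 and 83.9 CPM in SW620 cells. The knockdown library held 104% of the control level in SW480 (interval 95.2% to 113%) and 102% in SW620 (91.1% to 114%). Across the lines, the log2 fold change was 0.04 with a 95% interval from -0.20 to 0.28 (adjusted p = 0.986). NRF2 is controlled mainly as a protein, which these data do not measure. Between the lines NFE2L2 differed, with a log2 fold change of -0.65 (standard error, SE, 0.12, adjusted p = 4.22e-07) in SW620 against SW480. The SW480 libraries were 1.56 times and 1.59 times the SW620 libraries in control and knockdown cells. In GENCODE 29 the exons of NFE2L2 share 1054 bases with AC019080.1 on the same strand. On the opposite strand they share 190 bases with AC079305.1 and 54 with AGPS, and the use of strand in counting is not stated.

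KEAP1, the sensor that holds NRF2 in check, was at 98 to 134 CPM in the 4 libraries and had a log2 fold change of 0.07 on knockdown (adjusted p = 0.975). In the list of 12 NRF2 regulators and partners, all were tested and 0 passed in either direction on knockdown, with 1 at the unadjusted limit. That gene was BTRC, part of a second ligase complex for NRF2, at 121% and 126% of control in SW480 and SW620 (adjusted p = 0.41). Between the lines, 6 of the 12 were lower and 2 higher in SW620, 66.7% in all against 63.6% of all genes tested. SQSTM1, the autophagy receptor that sequesters KEAP1, was at 386 and 376 CPM in SW480 cells and at 157 and 160 CPM in SW620 cells. MAFF, a small MAF partner, was at 18.2 and 11.3 CPM in SW480 and at 6.60 and 8.33 CPM in SW620. BACH2, a repressor that competes for the same elements, had 64 and 31 counts in the SW480 libraries and 1 and 2 counts in the SW620 libraries. SQSTM1, MAFF and BACH2, the largest line differences of this list, thus had their lower values in SW620. The 2 higher in SW620 were MAFG and RBX1, with log2 fold changes of 0.41 and 0.36.

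TXNRD1 encodes the selenoenzyme that passes electrons from NADPH to thioredoxin. In SW480 it had 4817 counts in control and 1980 in knockdown cells. In SW620, where the knockdown library was the deeper, it had 935 and 1907. Scaled to library size, this was 502 and 299 CPM in SW480 and 171 and 142 CPM in SW620. Knockdown SW480 cells kept 59.5% of the control level (interval 56.5% to 62.8%) and knockdown SW620 cells 82.7% (76.4% to 89.5%). Neither interval reached 100%, and the fall was larger in SW480. Over both lines TXNRD1 fell by 0.52 on the log2 scale (SE 0.11, adjusted p = 4.79e-04), which ranked 61 by P value among the 14024 genes. The fit averages unequal lines, since the log2 fold change was -0.75 in SW480 alone and -0.27 in SW620 alone. The call depended on the fit: the adjusted p was 0.0679 with a filter of 50 counts in 2 libraries, 0.335 with DESeq2's Wald test and 1.00 when the cell line was left out, and it ranged from 4.79e-04 to 1.00 over all fits. The log2 fold change lay between -0.61 and -0.51 in all of them. TXNRD1 was also lower in SW620 than in SW480, by a log2 fold change of -1.31 (SE 0.11, adjusted p = 2.57e-31). Control SW480 cells held 2.93 times the level of control SW620 cells (interval 2.73 to 3.14), and knockdown SW480 cells held 2.11 times (1.98 to 2.24).

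The fall of TXNRD1 was set beside the other parts of the thioredoxin system. TXN, the thioredoxin it reduces, was at 253 and 244 CPM in control and knockdown SW480 cells and at 371 and 407 CPM in SW620 cells. Its log2 fold change on knockdown was 0.04 (adjusted p = 0.982). TXNRD2, the mitochondrial reductase, was at 22.1 and 22.5 CPM in SW480 and at 39.8 and 30.3 CPM in SW620, with a log2 fold change of -0.20 (adjusted p = 0.86). All 21 listed genes of thioredoxins, peroxiredoxins, methionine sulfoxide reductases and sestrins were tested. On knockdown 1 was lower and 1 higher, 9.52% in all against 1.66% of all genes tested. SESN3, a sestrin, rose, from 5.31 to 13.9 CPM in SW480 and from 90 to 105 CPM in SW620 (log2 fold change 0.55, SE 0.15, adjusted p = 0.0262). The transcript was at 261% of control in SW480 (interval 184% to 376%) and at 116% in SW620 (105% to 129%). TXNIP, which binds and inhibits thioredoxin, fell with a log2 fold change of -0.61 (SE 0.18, adjusted p = 0.0409). It had 0 counts in both SW480 libraries and 121 and 79.2 CPM in control and knockdown SW620 cells. The value and its call thus came from SW620 alone, with 1 library per condition. At the unadjusted limit there was also MSRB2, a methionine sulfoxide reductase, at 186% and 135% of control (adjusted p = 0.0853). The call of SESN3 was lost in 4 of the 5 other edgeR fits and that of TXNIP in all 5, and DESeq2 gave neither an adjusted p.

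SRXN1 encodes sulfiredoxin, which repairs over-oxidized peroxiredoxins. It was at 140 CPM in control and 129 CPM in knockdown SW480 cells, and at 113 and 134 CPM in SW620 cells. The knockdown library was at 92.1% of control in SW480 (interval 84.4% to 100%) and at 119% in SW620 (108% to 130%). The values moved in opposite directions in the lines, and over both the log2 fold change was 0.06 (interval -0.17 to 0.30, adjusted p = 0.977). SRXN1 was the gene that differed least between the lines, with a log2 fold change of -0.13 in SW620 against SW480 (adjusted p = 0.342). In GENCODE 29 its exons share 2292 bases with a readthrough gene, AL121758.1, on the same strand.

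Glutathione synthesis starts with the cystine that SLC7A11 imports. SLC7A11 was at 71.6 CPM in control and 81.3 CPM in knockdown SW480 cells, and at 40.5 and 66.3 CPM in SW620 cells. The knockdown library held 113% of the control level in SW480 (interval 101% to 127%) and 164% in SW620 (141% to 190%). Both intervals lay above 100%, and the larger value was in SW620. Across the lines, the log2 fold change was 0.43 (SE 0.13, adjusted p = 0.0658), which missed the threshold, and the adjusted p ranged from 0.0623 to 1.00 over all fits. Between the lines the log2 fold change was -0.54 in SW620 against SW480 (SE 0.13, adjusted p = 1.36e-04), a call that was lost in the fit without the treatment term (adjusted p = 0.0524) and with DESeq2 (0.061). Control SW480 cells held 1.77 times the level of control SW620 cells, but knockdown SW480 cells only 1.23 times that of knockdown SW620 cells. The antisense gene SLC7A11-AS1 shares 865 exonic bases with SLC7A11 and had 27 to 96 counts per library, and without strand their reads cannot be told apart. SLC3A2, the heavy chain that brings SLC7A11 to the cell surface, was at 340 and 341 CPM in SW480 and at 317 and 388 CPM in SW620 (log2 fold change 0.15, adjusted p = 0.802).

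GCLC and GCLM encode the catalytic and the modifier subunit of glutamate-cysteine ligase, the rate-limiting enzyme of glutathione synthesis. GCLC was at 73.6 CPM in control and 69.4 CPM in knockdown SW480 cells, and at 90 and 109 CPM in SW620 cells. The knockdown library was at 94.3% of control in SW480 (interval 83.6% to 106%) and at 121% in SW620 (109% to 134%). Over both lines the log2 fold change of GCLC was 0.10 (interval -0.15 to 0.35, adjusted p = 0.959). GCLM was at 34.5 and 26.4 CPM in control and knockdown SW480 cells, and at 20.5 and 21.5 CPM in SW620 cells. This was 76.6% of control in SW480 (interval 63.4% to 92.3%) and 105% in SW620 (83.8% to 131%), with a log2 fold change of -0.17 over both lines (interval -0.51 to 0.16, adjusted p = 0.919). Neither subunit passed on knockdown, and both had their higher knockdown-to-control value in SW620.

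The subunits were ordered oppositely between the lines. GCLC was higher in SW620 than in SW480, with a log2 fold change of 0.47 (SE 0.13, adjusted p = 5.09e-04). GCLM was lower in SW620, with a log2 fold change of -0.51 (SE 0.17, adjusted p = 0.00496). There were 2.14 GCLC counts per GCLM count in control SW480 cells (interval 1.87 to 2.44) and 2.63 in knockdown SW480 cells (2.20 to 3.15). In SW620 cells the ratio was 4.38 in control (3.56 to 5.43) and 5.07 in knockdown (4.46 to 5.77). The ratio of counts was higher in both SW620 libraries than in either SW480 library, and within a line the intervals of control and knockdown overlapped. DESeq2 did not call the line difference of either subunit (adjusted p = 0.0822 for GCLC and 0.202 for GCLM).

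Of the 15 listed genes of glutathione synthesis and turnover, 13 were tested and 0 passed on knockdown, also at the unadjusted limit. GSS, which adds the glycine to glutathione, was at 92.8 and 114 CPM in control and knockdown SW480 cells and at 218 and 189 CPM in SW620 cells (log2 fold change 0.03, adjusted p = 0.986). GSR, which reduces oxidized glutathione, was at 279 and 280 CPM in SW480 and at 120 and 129 CPM in SW620 (log2 fold change 0.05, adjusted p = 0.98). Both genes differed between the lines, by log2 fold changes of 0.98 for GSS and -1.17 for GSR in SW620 against SW480. The largest line differences of this list were those of DPEP1, a dipeptidase, of OPLAH, the 5-oxoprolinase that returns glutamate, and of GGT5, a gamma-glutamyltransferase relative. DPEP1 had 6 and 4 counts in SW480 and 285 and 666 in SW620. OPLAH was at 28.5 and 35 CPM in SW480 and at 4.95 and 4.61 CPM in SW620. GGT5 had 16 and 14 counts in SW480 and 1 and 2 in SW620.

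GPX2, the intestinal glutathione peroxidase, is like TXNRD1 a selenoprotein. It had 1501 counts in control and 3244 in knockdown SW620 cells but 12 and 1 counts in SW480 cells. Control SW620 cells held 220 times the CPM of control SW480 cells (interval 126 to 427), and in knockdown cells the ratio, resting on 1 SW480 count, was 1599 (287 to 63170). The fitted log2 difference between the lines was 8.35 (SE 0.22, adjusted p = 3.03e-307), which ranked 18 by P value among all genes. On knockdown, GPX2 was at 87.6% of control in SW620 (interval 82.4% to 93.2%) and at 12.1% in SW480, where the interval from 0.282% to 81.6% shows how little those counts carry. Across the lines, the log2 fold change was -0.27 (interval -0.59 to 0.04, adjusted p = 0.678). Of the family, GPX3 was also higher in SW620, with 5 and 1 counts in SW480 and 15 and 30 in SW620, and GPX7, which was not tested, had 0 counts in SW480 and 6 and 12 in SW620. GPX8 was lower in SW620. GPX1 was at 184 to 254 CPM and GPX4, the peroxidase of lipid hydroperoxides, at 261 to 317 CPM in the 4 libraries, and both were somewhat lower in SW620, by log2 fold changes of -0.45 and -0.23. Their log2 fold changes on knockdown were 0.01 and -0.05 (adjusted p = 0.998 and 0.98).

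TXNRD1 and GPX2 both need selenocysteine. Of 21 other selenoprotein genes listed, 20 were found and 18 tested, and 0 passed on knockdown, also at the unadjusted limit. Their median log2 fold change was -0.01. Of the 7 listed genes of selenocysteine synthesis, insertion and turnover, with their relatives, 6 were tested and 0 passed. SEPHS1, a relative of the selenophosphate synthetase, was the only one at the unadjusted limit (87% and 78.8% of control in SW480 and SW620, adjusted p = 0.442). Between the lines, SELM (now SELENOM) had 363 and 285 counts in SW480 and 5 and 12 in SW620, the largest difference among these other selenoproteins. DIO3 and GPX3 were the next, at 45 and 91 and at 15 and 30 counts in SW620 against at most 11 counts in SW480. EEFSEC, the elongation factor for selenocysteine, was at 22.7 and 18.7 CPM in SW480 and at 41.1 and 32.5 CPM in SW620.

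**Figure D2:**
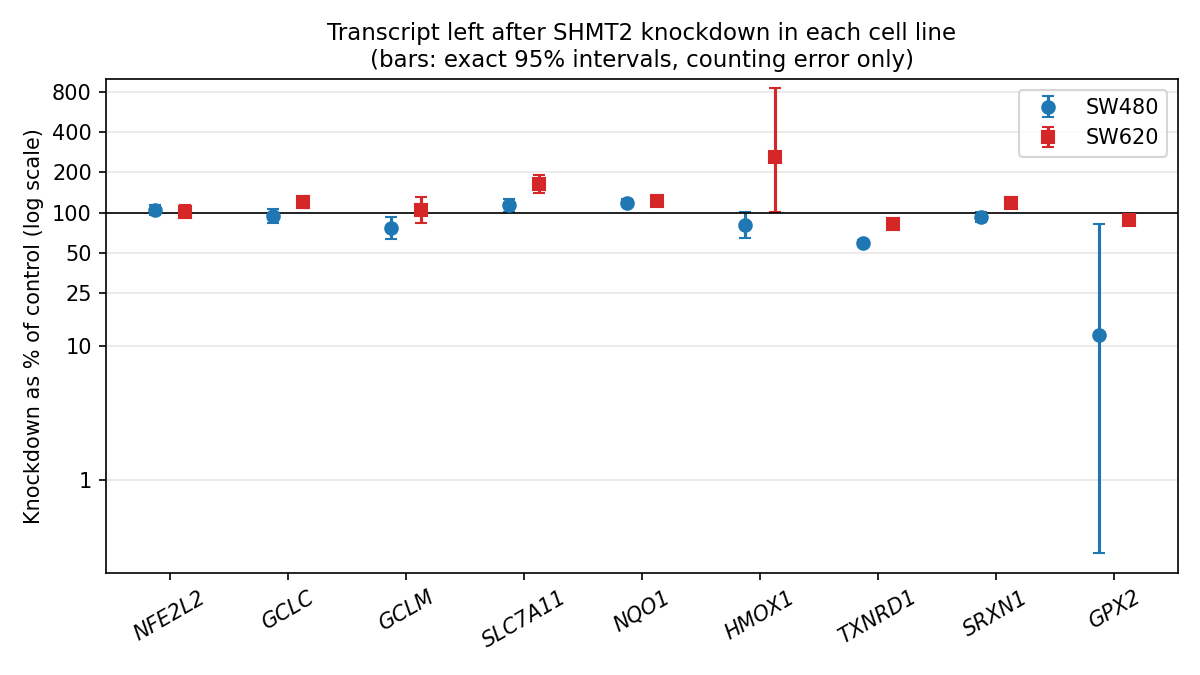
Knockdown level as a percentage of the control level of the same line (log scale) for the 9 genes, SW480 as blue circles and SW620 as red squares, with exact 95% intervals for counting error. TXNRD1 lies below 100% in both lines (59.5% and 82.7%), NQO1 and SLC7A11 lie above it in both, and the interval of GPX2 in SW480 runs from 0.282% to 81.6%.

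NQO1, a quinone reductase and a classical readout of NRF2 activity, was at 237 CPM in control and 281 CPM in knockdown SW480 cells, and at 203 and 248 CPM in SW620 cells. The knockdown library was at 119% of control in SW480 (interval 112% to 126%) and at 122% in SW620 (114% to 131%). The lines thus gave near-equal values above the counting error. Across the lines, the log2 fold change was 0.27 (SE 0.11, adjusted p = 0.31), which did not pass after adjustment in any of the fits, where the smallest adjusted p was 0.309. Between the lines the log2 fold change was -0.20 (adjusted p = 0.0974). An antisense gene in GENCODE 29 shares 575 exonic bases with NQO1.

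HMOX1 encodes heme oxygenase, which breaks heme down to iron, carbon monoxide and biliverdin. It had 218 counts in control and 122 in knockdown SW480 cells, but 5 and 32 in SW620 cells. In CPM this was 22.7 and 18.4 in SW480 and 0.917 and 2.38 in SW620. Control SW480 cells held 24.8 times the level of control SW620 cells (interval 10.4 to 77), and knockdown SW480 cells 7.74 times (5.20 to 11.8). The fitted log2 difference of SW620 against SW480 was -3.43 (SE 0.30, adjusted p = 1.38e-29). On knockdown HMOX1 was at 81.1% of control in SW480 (interval 64.4% to 102%) and at 259% in SW620 (100% to 853%), where the control held only 5 counts. Across the lines, the log2 fold change was -0.01 (interval -0.56 to 0.54, adjusted p = 0.998).

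All 9 listed genes of heme and iron handling were tested, 0 passed on knockdown and 1 was at the unadjusted limit. This was FTL, the ferritin light chain, at 113% and 124% of control in SW480 and SW620 (adjusted p = 0.218). FTH1, the ferritin heavy chain, was at 2578 and 2459 CPM in SW480 and at 1063 and 1144 CPM in SW620. BLVRB, a biliverdin reductase, was at 85 and 75.7 CPM in SW480 and at 10.1 and 10.9 CPM in SW620. HMOX1, FTH1 and BLVRB were thus all lower in SW620. Of the 9 listed genes, 4 were lower and 2 higher in SW620, 66.7% in all against 63.6% of all genes tested. The 2 higher were TFRC, with a log2 fold change of 0.74, and SLC40A1, the iron exporter ferroportin. SLC40A1 had 0 counts in both SW480 libraries and 44 and 95 in SW620. This was at least 25.8-fold higher in control and 15.6-fold higher in knockdown cells, against a floor of 3 counts per library.

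The levels of the 9 genes were ordered per length, as CPM per kilobase of merged exons in GENCODE 29. NQO1 was at 62.4 to 86.4 and SRXN1 at 41.7 to 52 CPM per kilobase over the 4 libraries, the steadiest of the high genes. TXNRD1 ranged from 21.1 to 74.8 and was the highest of the 9 in control SW480 cells, but the third in knockdown SW480 cells and the fourth in SW620 cells. GPX2 was the highest in both SW620 libraries, at 184 and 161, and the lowest in both SW480 libraries, at 0.833 and 0.101. NFE2L2 followed at 13.8 to 22.3, GCLC at 8.02 to 12.6, SLC7A11 at 4.20 to 8.43, GCLM at 3.79 to 6.36 and HMOX1 at 0.381 to 9.44 CPM per kilobase. The ranges of GCLC and SLC7A11 overlap, as do those of SLC7A11 and GCLM. That of HMOX1 overlaps all of these. In control SW480 cells HMOX1, at 9.44, was above GCLC, SLC7A11 and GCLM, while in SW620 cells it was the lowest of the 9. The merged exon length is a guide only, since the isoforms in these cells are not known.

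The direction of the knockdown values was compared between the lines. Of the 9 genes, NFE2L2, SLC7A11 and NQO1 had higher values in the knockdown of both lines, TXNRD1 and GPX2 had lower values in both, and 4 had opposite directions. Some of these directions are uncertain, since the counting intervals of NFE2L2 held 100% in both lines. GPX2 had only 12 and 1 counts in control and knockdown SW480 cells, and HMOX1 only 5 in control SW620 cells. Among all genes tested, 27% were higher in both, 24.7% lower in both and 45.6% opposite. The value in SW620 was above that in SW480 for 8 of the 9 genes, with NFE2L2 as the exception, against 50.2% of all genes tested. The median of their log2 fold changes was -0.12 in SW480 and 0.25 in SW620, where the medians of all genes tested were 0.00 in both. The difference between the lines had no test, since a model with that term leaves no residual degree of freedom. The knockdown library was the shallower one in SW480 and the deeper one in SW620, and the part of depth in this split between the lines was not tested.

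The antioxidant response element was searched for in the promoters of these genes, from 250 bases before to 50 bases after the transcription start, in RefSeq sequences on GRCh38.p14. The core TGACNNNGC was searched on both strands. The table held 9 windows for 7 of the genes, and HMOX1 and SLC7A11 had none. The core was in 4 of these 9 windows, in GCLM, GPX2 and both start sites of TXNRD1, and in 13.3% of all 35116 windows. The sequences below show each core in capitals with 12 flanking bases on either side, read on the strand that carries the core, because they belong to the gene that fell on knockdown and to the gene that differed most between the lines, with GCLM beside them.

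TXNRD1 upstream start, chr12:104215668-104215700, plus strand: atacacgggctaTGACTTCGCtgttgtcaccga

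TXNRD1 upstream start, chr12:104215759-104215791, minus strand: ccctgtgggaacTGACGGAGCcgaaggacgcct

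TXNRD1 downstream start, chr12:104286918-104286950, minus strand: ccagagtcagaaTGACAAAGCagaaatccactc

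GPX2, chr14:64942847-64942879, plus strand: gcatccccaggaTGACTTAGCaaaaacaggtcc

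GCLM, chr1:93909444-93909476, plus strand: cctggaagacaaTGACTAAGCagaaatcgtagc

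In TXNRD1 the cores lie 99 to 91 bases upstream of the first start, 8 bases upstream of it up to the start base itself, and 102 to 94 bases upstream of the second start. In GPX2 the core lies 122 to 114 bases and in GCLM 34 to 26 bases upstream of the start. On knockdown the log2 fold changes of these 3 genes were -0.52 for TXNRD1, -0.27 for GPX2 and -0.17 for GCLM. Only TXNRD1 passed, and the 95% intervals of the 3 overlapped. Between the lines GPX2 was higher in SW620, where TXNRD1 and GCLM were lower. The windows of NFE2L2, GCLC, NQO1 and SRXN1 did not hold these letters, which says nothing of elements farther away. Their log2 fold changes on knockdown were 0.04, 0.10, 0.27 and 0.06, and none passed. A link between the core and the knockdown values was not tested. A match is a description of sequence and not a measured binding site.

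Across 10 lists of related genes, which hold 162 genes beside the 9, 161 were found and 142 tested. On knockdown 1 gene passed as lower and 2 as higher after adjustment, which is 2.11% of those tested against 1.66% of all genes, and at the unadjusted limit it was 7.75% against 9.06%. With DESeq2, which gave 63 of the 142 an adjusted p, 0 passed after adjustment and 2 at the unadjusted limit. The genes called were TXNIP and SESN3, described above, and ABCC2, an exporter of glutathione conjugates. The call of TXNIP rests on SW620 alone. ABCC2 rose, from 163 to 302 CPM in SW480 cells, while it was at 15.2 and 15.5 CPM in SW620 cells (log2 fold change 0.61, SE 0.14, adjusted p = 0.00151). The rise was in SW480, at 186% of control (interval 174% to 199%), and SW620 was at 102% (78.4% to 133%). Its adjusted p was 0.169 with a filter of 50 counts and 1.00 with DESeq2 or without the cell line, and ranged from 0.00151 to 1.00. ABCC3, a related exporter, was at 161% and 121% of control (adjusted p = 0.0966).

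Of the 26 detoxification and export genes, 22 were tested and ABCC2 alone was called on knockdown, with ABCC3 also at the unadjusted limit. Over all genes tested, 1.66% were called and 9.06% were at the unadjusted limit. Of the 31 genes that use glutathione, 23 were tested and 0 passed, with ESD, an S-formylglutathione hydrolase, at 86.7% and 73.7% of control (adjusted p = 0.328) the only one at the unadjusted limit. Of the 7 superoxide and peroxide genes, 6 were tested and 0 passed, with CAT (147% and 108% of control, adjusted p = 0.267) and PON2 (150% and 109%, adjusted p = 0.236) at the unadjusted limit. Of the 19 genes of NADPH supply, 18 were tested and 0 passed, also at the unadjusted limit. Their median log2 fold change was 0.04. MTHFD2, the mitochondrial folate enzyme that acts after SHMT2, was at 326 and 309 CPM in SW480 and at 223 and 263 CPM in SW620 (log2 fold change 0.08, adjusted p = 0.961). NADK, the kinase that makes NADP, had the smallest P value of this list and an adjusted p of 0.765.

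**Figure D3:**
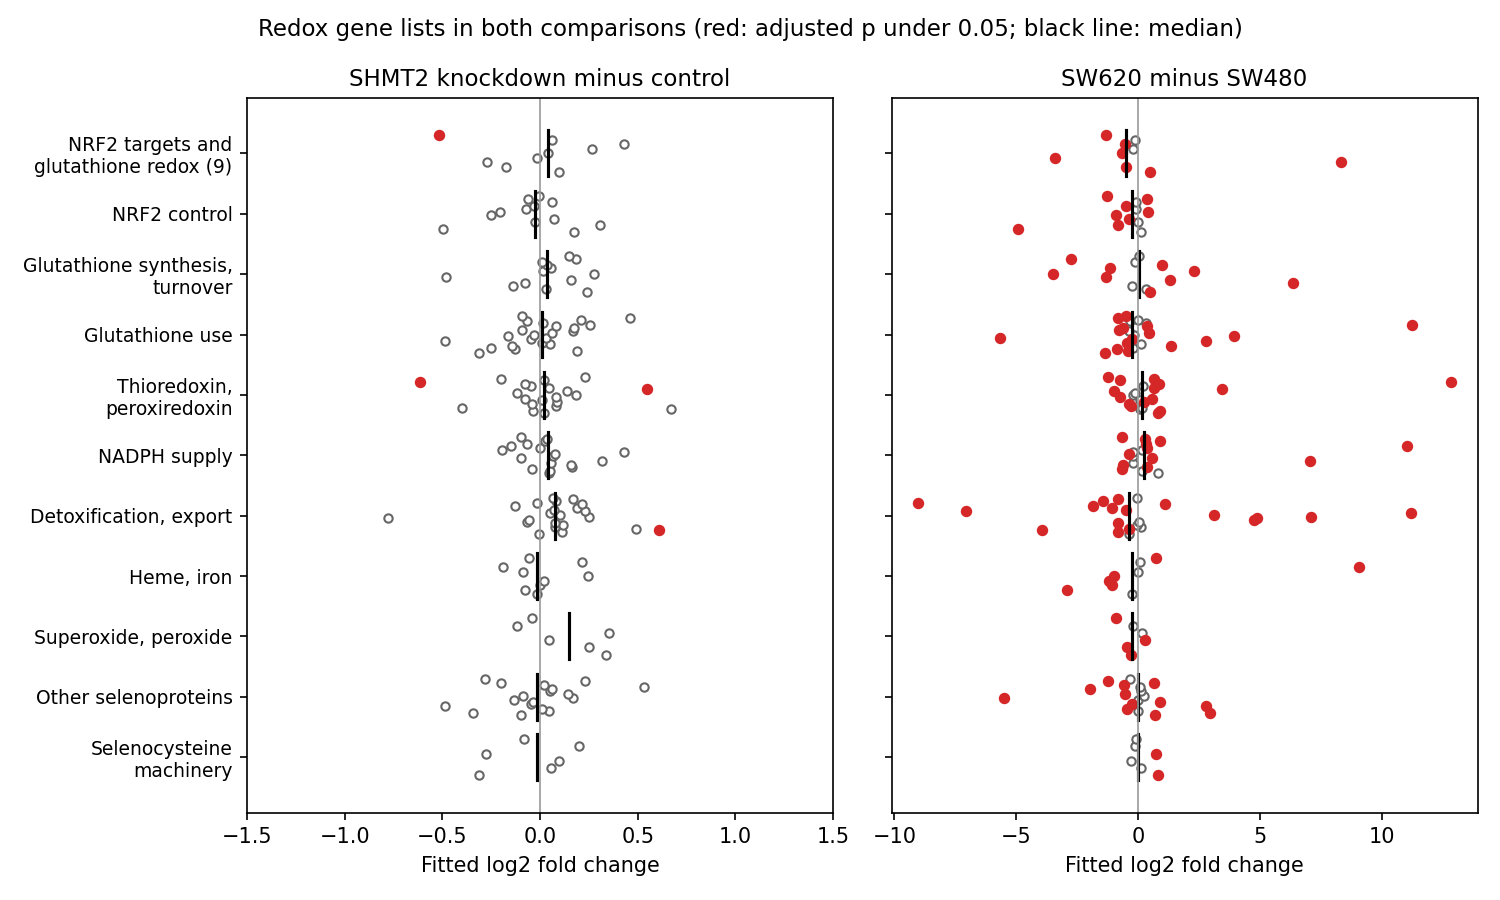
Fitted log2 fold changes of the tested genes in the 9-gene group and in 10 related lists, for SHMT2 knockdown against control (left) and SW620 against SW480 (right, on a wider axis). Each point is 1 gene, red points have an adjusted p under 0.05 and black lines are medians: on the left only TXNRD1, TXNIP, SESN3 and ABCC2 are red, while on the right red points are in every list.

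The cell lines differed in the same lists. Of the 142 genes, 52 were lower and 43 higher in SW620, 66.9% in all against 63.6% of all genes tested. In NADPH supply, NNT, the mitochondrial transhydrogenase that makes NADPH, had 895 and 2007 counts in control and knockdown SW620 cells and 1 and 0 counts in SW480 cells. ME3, a mitochondrial malic enzyme, had 49 and 155 counts in SW620 and 1 and 0 in SW480. PGLS, the lactonase of the pentose phosphate pathway, was at 77.9 and 58.1 CPM in SW620 and at 29.7 and 43.6 CPM in SW480. These 3 genes, the largest line differences of that list, were all higher in SW620. Of its 18 tested genes, 8 were higher in SW620 and 4 were lower. The lower ones were TKT, ME1, IDH1 and MTHFD2, with log2 fold changes of -0.64, -0.63, -0.66 and -0.39.

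Genes that were near 0 in 1 line and expressed in the other were found on both sides. GSTT1, a glutathione transferase, had 0 counts in SW480 and 175 and 515 in SW620, at least 103-fold higher in control and 84.6-fold higher in knockdown cells. CBR1, a carbonyl reductase, had 0 counts in SW480 and 178 and 455 in SW620, at least 104-fold higher in control and 74.8-fold higher in knockdown cells. TXNIP was at least 389-fold higher in SW620 than in SW480 among control cells and 175-fold higher among knockdown cells. AKR1C3, an aldo-keto reductase with near-identical relatives that could share its reads, had 5 and 1 counts in SW480 and 263 and 802 in SW620. GSTA4, a transferase for lipid aldehydes, had 10 and 5 counts in SW480 and 79 and 180 in SW620.

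On the other side, PTGR1, a reductase of the NRF2 response, had 336 and 234 counts in SW480 and 1 and 0 in SW620. GPX8, a peroxidase of the endoplasmic reticulum, had 433 and 306 counts in SW480 and 5 and 12 in SW620. SOD2, the mitochondrial superoxide dismutase, was at 74.2 and 68.5 CPM in SW480 and at 36.9 and 38.1 CPM in SW620. CCS, its cytosolic relative's copper chaperone, and CAT differed less, with log2 fold changes of -0.44 and -0.29 in SW620 against SW480. TXNRD3, the third thioredoxin reductase, was at 9.37 and 12.7 CPM in SW480 and at 4.95 and 4.68 CPM in SW620, and SESN3 was higher in SW620 by 3.43 on the log2 scale. As every library of a line comes from that line's own cultures, a difference between the lines and one between the cultures cannot be told apart.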

How the data were processed

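Whole-number counts, not normalized, were deposited by the authors for each gene symbol and library, from Illumina TruSeq libraries of total RNA. The submitters' processing notes name Bowtie 0.12.2 and hg18 without their roles. The counting program, annotation and use of strand are not given in the sources used here. In 28 rows the symbol had become a date. They hold 0.217% of the counts and were kept, and SEP15 of the selenoprotein list was not found. Samples were grouped by the treatment and cell line in their labels.

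A gene was tested if 2 or more libraries had 10 or more counts. After TMM scaling, edgeR 4.0.16 (R 4.3.3) was run with the two-sided quasi-likelihood test with terms for treatment and cell line. Knockdown and control of a line pair by the line. This leaves 1 residual degree of freedom, so the spread is shared across genes. With 1 culture per library, p values measure the spread between these libraries, taken mainly over many genes. A small p value therefore says little of whether both lines gave a gene like values. ABCC2, for example, had an SE of 0.14, while its knockdown value on the log2 scale was 0.89 for SW480 but 0.02 for SW620. Standard errors are the log2 fold change divided by the square root of F, and intervals of fitted values are 1.96 standard errors. A prior count of 2 entered the log2 values of single lines. Intervals within a line are exact binomial intervals of the counts (SciPy 1.17.1). DESeq2 1.42.0 was an alternative, and the fit was tested on simulated data. Exons came from GENCODE 29 on GRCh38, not the authors' build.

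Named genes are the 9, SHMT2, fixed relatives of the 9, list genes called on knockdown or of smallest P, and the 3 largest line differences of each list. CAT, ABCC3, MSRB2 and MTHFD2, and the markers, were named after their values were seen. The genes and lists were chosen with earlier results of these data known.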

Additional observations from a re-analysis of the deposited data

Results flagged for a closer look

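In 4 of the 9 genes the knockdown values lay on opposite sides of control in the cell lines, against 45.6% of all genes tested. In each of these, the counting interval of 1 line included the control level. That line was SW620 for GCLM and SW480 for GCLC, SRXN1 and HMOX1. The difference between the lines was not tested, because each line has 1 library per condition. The log2 fold change in SW480 minus that in SW620 was -0.36 for GCLC (95% interval from counts -0.58 to -0.13), -0.45 for GCLM (-0.86 to -0.04), -0.37 for SRXN1 (-0.55 to -0.19) and -1.49 for HMOX1 (-2.88 to -0.09). These intervals cover counting error only. The value of HMOX1 rests on 5 counts in control SW620 cells.

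The same difference was -0.47 for TXNRD1 (-0.61 to -0.34), -0.53 for SLC7A11 (-0.79 to -0.26), and -1.77 for GPX2 (-4.72 to 1.17, resting on 1 count in knockdown SW480 cells), whose directions were shared by the lines. It was 0.03 for NFE2L2 (-0.17 to 0.23), also shared, and -0.04 for NQO1 (-0.17 to 0.09).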

How the results depend on the processing

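Without the cell line in the model (no replicate block), 0 of the 9 genes, 0 list genes and 0 genes in either direction were called on knockdown, and the common dispersion was 0.561 in place of 0.00819. With a filter of 50 counts in 2 libraries these numbers were 0, 0, 54 lower and 15 higher. With DESeq2's Wald test they were 0, 0, 21 lower and 5 higher, and 4 of the 9 genes were called between the lines, with 2826 genes lower and 2680 higher in SW620. With no filter or with libraries thinned to the smallest total, 1 list gene was called on knockdown, and TXNRD1 was still called. The log2 fold change of HMOX1 on knockdown turned from -0.01 to 0.36 with DESeq2 and to 0.016 after thinning. Why these fits differ was not tested. For the single genes, 98 values with an adjusted p under other settings kept direction and call and 7 lost the call. Those of HMOX1 above turned sign, and DESeq2 gave HMOX1 and GCLM no adjusted p on knockdown. Of the values that leave out a line or a condition, 30 kept their direction, and 6 turned sign or moved beyond the spread. Without SW620 the knockdown value of GCLC was -0.09, of SRXN1 -0.12 and of GPX2 -1.964, and without SW480 that of GCLM was 0.06 and of HMOX1 1.19. Leaving out 1 line leaves no residual degree of freedom, so those values have no test. Depth limits GPX2 in SW480 and HMOX1 in SW620, at 12 counts or fewer and at 32 or fewer.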
